A study of Homo sapiens with 16 samples.

Results

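MED1 peaks at the YY1 and SKOR1 positions are 5 of the 3464 peaks in 6 ChIP-seq peak lists from HCT116 cells, a human colorectal carcinoma line. They are all the listed peaks that overlap chromosome 14, 100.69 to 100.76 Mb (YY1), or chromosome 15, 68.1 to 68.15 Mb (SKOR1), in hg19, with 3 peaks at YY1 and 2 at SKOR1. The 2 intervals were chosen because they held the peaks of highest fold enrichment that were listed with Nutlin-3a and not with DMSO in WT cells. Presence, fold enrichment, width and summit position are therefore given as a description, with no test.

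MED1 was immunoprecipitated in 8 libraries, beside 8 inputs. The edited MED14-AID line (genotype OsTir1+/-;Med14-AID+/+) received 500 µM auxin or water for 3 h, each followed by Nutlin-3a for 1 h or by no further treatment. Unmodified (WT) cells received Nutlin-3a or DMSO for 1 h. The labels give no dose for Nutlin-3a. Each MED14-AID list rests on 1 library and each WT list is a joint list of 2 replicates, so the spread between replicates is not known for any value. All MED14-AID groups carry the degron on MED14 and the OsTIR1 gene, and the labels do not say whether the line is a single clone. Read totals are not part of the lists, and sequencing depth is unknown.

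Mediator is a large complex that passes signals from DNA-bound transcription factors to RNA polymerase II. MED1 is a subunit often mapped at enhancers, and MED14 is the backbone that holds the parts of the complex together. Auxin, through the plant protein OsTIR1, sends MED14 with its degron to the proteasome. Nutlin-3a keeps MDM2 off p53 and so stabilises p53, a transcription factor that activates cell cycle arrest and apoptosis genes. YY1 encodes a zinc finger transcription factor that can activate or repress and that binds at many promoters and enhancers. SKOR1 encodes a transcriptional corepressor of the SKI family, known mainly from the mouse nervous system, where it acts with LBX1. In the RefSeq gene table of GRCh38.p14, the protein-coding genes next in order of start were DEGS2 and SLC25A29 beside YY1. Beside SKOR1 they were LOC124903570 and PIAS1. Where the peaks lie relative to the exons and start sites of the genes was not analysed here, since that table is of another build than the lists. The gene names are thus names of the intervals and do not assign a target.

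The promoters of the 2 genes are shown because peaks at both intervals were listed together in the same 2 lists. The windows come from RefSeq (GRCh38.p14, plus strand), at chr14:100238894-100239193 for YY1 and chr15:67825259-67825558 for SKOR1. Lower case marks the 250 bases before the gene start and capitals the 50 bases from it. Whether an hg19 peak covers these windows was not analysed here.
YY1: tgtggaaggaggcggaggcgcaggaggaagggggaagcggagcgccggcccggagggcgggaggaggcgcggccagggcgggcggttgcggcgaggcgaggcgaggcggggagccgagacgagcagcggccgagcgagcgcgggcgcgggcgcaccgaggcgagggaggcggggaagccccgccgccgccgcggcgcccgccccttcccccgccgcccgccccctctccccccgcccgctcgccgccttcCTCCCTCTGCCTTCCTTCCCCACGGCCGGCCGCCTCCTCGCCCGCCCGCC
SKOR1: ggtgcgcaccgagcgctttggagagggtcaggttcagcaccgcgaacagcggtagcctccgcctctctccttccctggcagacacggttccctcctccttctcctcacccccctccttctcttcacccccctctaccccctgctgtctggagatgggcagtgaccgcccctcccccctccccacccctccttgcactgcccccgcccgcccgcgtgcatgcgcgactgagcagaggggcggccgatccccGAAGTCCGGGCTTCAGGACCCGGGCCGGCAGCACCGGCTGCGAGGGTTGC
The YY1 window was 82.7% G or C and the SKOR1 window 70.3%, against a median of 58.7% over 35116 windows of the same length. Both strands were searched for the p53 half-site consensus, which neither window held and 6.63% of all windows did. The letters CATG, one form that the core of the half-site can take and so in overlap with some of its matches, occurred once in the SKOR1 window, from base 217, and not in the YY1 window, against 54.9% of all windows. The YY1 motif GCCATNTT was in neither window and in 6.58% of all. These matches describe the letters in the windows only. The sequence under the MED1 peaks was not analysed, so they say nothing about those peaks.

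At the YY1 position, MED1 was listed in all 3 lists with Nutlin-3a and in none of the 3 without it. With auxin and Nutlin-3a the peak ran over chromosome 14, 100743361 to 100745123, with an authors' fold enrichment over background of 14.6 and a −log10 q of 112.5. With water and Nutlin-3a it ran over 100743628 to 100744522, with a fold of 3.78 and a −log10 q of 7.68. In WT cells with Nutlin-3a it ran over 100743337 to 100745126, with a fold of 13.8 and a −log10 q of 163.2. The YY1 peak was high with auxin and low with water, and its height in the WT list is what it was chosen for. Folds of separate lists are not on a common scale, so each is read against its own list. The median fold was 5.34 with auxin and Nutlin-3a, 4.25 with water and Nutlin-3a and 3.41 in WT cells with Nutlin-3a. By fold the YY1 peak was number 5 of 66, number 344 of 522 and number 10 of 1254 in these lists.

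At the SKOR1 position, MED1 was listed with auxin and Nutlin-3a and in WT cells with Nutlin-3a, and in no other list. With auxin and Nutlin-3a the peak ran over chromosome 15, 68132013 to 68133023, with a fold of 8.91 and a −log10 q of 44.3. In WT cells with Nutlin-3a it ran over 68131981 to 68133063, with a fold of 12.6 and a −log10 q of 132.6. It was number 14 of 66 peaks by fold with auxin and number 12 of 1254 in WT cells. Its WT value is one it was chosen on, and its auxin value rests on a single library. The members were chosen with earlier results of these data known, so neither height stands outside that choice. The SKOR1 peak was missing from the list with water and Nutlin-3a.

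**Figure D1:**
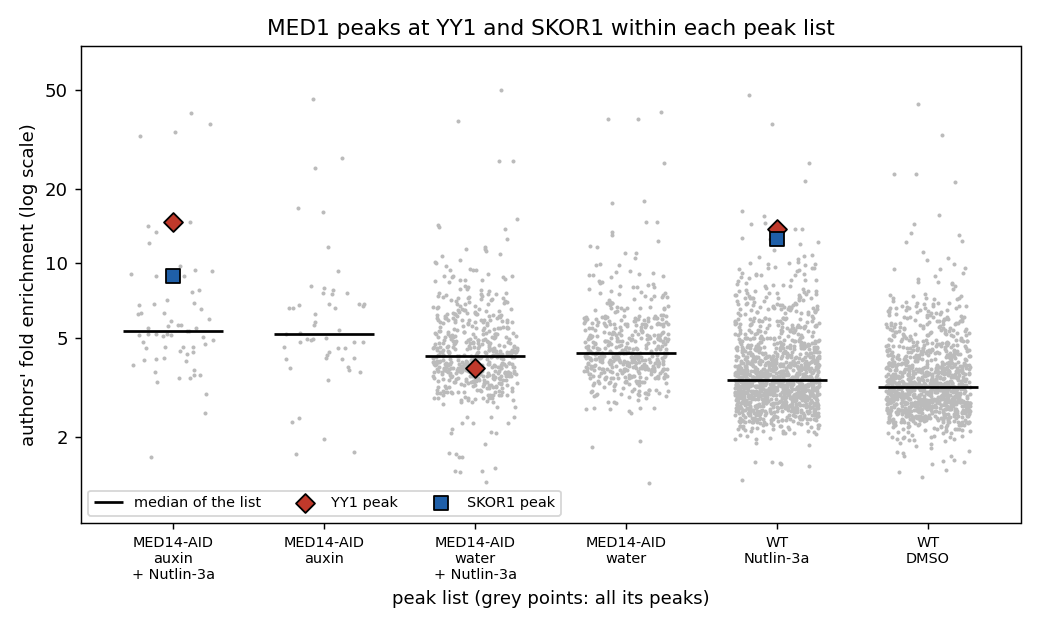
Authors' fold enrichment (log axis) of every MED1 peak in the 6 lists, with the YY1 peaks as diamonds, the SKOR1 peaks as squares and the median of each list as a line. The YY1 peak is at 14.6 and 13.8 in the auxin Nutlin-3a and WT Nutlin-3a lists and, at 3.78, below the median of 4.25 in the water Nutlin-3a list.

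The 3 lists in which neither peak was found also held weak peaks. The lowest −log10 q was 2.76 with auxin alone, 1.93 with water alone and 1.58 in WT cells with DMSO. It was 1.66 in the water list with Nutlin-3a, which lacked SKOR1. Peaks with −log10 q under 5 made up 3 of 53, 72 of 463 and 220 of 1106 peaks of the lists without Nutlin-3a. The narrowest peak was 500 bp wide in every list, so a minimum width may also have decided what was listed. A position without a peak had no signal that met the limits for listing, which does not show that MED1 was absent there.

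Nutlin-only peaks were common in every pair of lists. They made up 32 of 66 peaks with auxin (48.5%), 163 of 522 with water (31.2%) and 439 of 1254 in WT cells (35.0%). The reverse share, of peaks listed only without Nutlin-3a, was not counted here. These shares alone thus do not separate peaks gained with Nutlin-3a from turnover between lists. Since the intervals were chosen on the contrast of Nutlin-3a against DMSO in WT cells, their being Nutlin-only there adds nothing. The next highest Nutlin-only folds of WT cells, after the 13.8 of YY1 and the 12.6 of SKOR1, were 9.03 on chromosomes 11 and 14. Among the 32 Nutlin-only peaks with auxin, YY1 had the highest fold and SKOR1 the second highest, against a median of 4.83, and this order was the same by −log10 q. Among the 163 with water, YY1 was number 69 by fold, against a median of 3.66. The YY1 peak was thus leading among the Nutlin-only peaks with auxin and close to the middle of those with water. These places are a description only, since the members were chosen with earlier results of these data known.

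Few of the WT Nutlin-only peaks were listed again in MED14-AID cells with auxin and Nutlin-3a, where the level of MED14 is not known from the lists. Of the 439, 4 (0.911%) overlapped a peak of the auxin Nutlin-3a list, against 58 of the 815 WT Nutlin-3a peaks shared with DMSO (7.12%). YY1 and SKOR1 were 2 of those 4. The other two lay on chromosome 2, 113012335 to 113013014 (fold 4.26 in WT cells), and on chromosome 4, 155506736 to 155508377 (fold 6.83), and the chromosome 4 position was also listed with auxin alone and with water alone. Among peaks with water and Nutlin-3a, 46 of the 439 (10.5%) were found, YY1 among them and SKOR1 not, against 370 of the 815 shared ones (45.4%). The 439 had a median fold of 3.02, below the 3.41 of the whole WT Nutlin-3a list. Whether this lower strength accounts for either contrast was not tested. Of the 66 peaks with auxin and Nutlin-3a, 17 (25.8%) overlapped no peak with water and Nutlin-3a, and SKOR1 had the highest fold of these 17, against their median of 5.14.

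Merging overlapping peaks of all lists gave 1584 regions, of which 453 were found in lists with Nutlin-3a only. The auxin Nutlin-3a list was short, with 66 peaks in all. Of the 453 regions, 4 were in that list, among them YY1 and SKOR1. The position most like YY1, measured as the same presence in all 6 lists, was the one on chromosome 2 named above, and no other region had this pattern. Its fold was 5.21 with auxin and Nutlin-3a, 4.27 with water and Nutlin-3a and 4.26 in WT cells with Nutlin-3a, against the list medians of 5.34, 4.25 and 3.41 given above. No other region had the pattern of SKOR1. The remaining one of the 4, on chromosome 3 from 75697819 to 75698439, had a fold of 2.49 with auxin and Nutlin-3a and no peak in the other lists.

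The YY1 peak had nearly the same place and shape with auxin and in WT cells. Its summit was at 100744230 with auxin and Nutlin-3a, at 100744257 with water and Nutlin-3a and at 100744229 in WT cells with Nutlin-3a. The summit with auxin was thus 1 bp from that in WT cells and 27 bp from that with water. Over the 65 auxin Nutlin-3a peaks that overlapped a WT Nutlin-3a peak, the median distance between summits was 41 bp, none was closer than the YY1 pair and 1 other was as close. The start of the YY1 peak differed by 24 bp and its end by 3 bp between these lists, and 2 of the 65 pairs had edges closer together in sum. The summit lay near the middle of the peak, at 49.3% of its width with auxin and 49.8% in WT cells, and off the middle, at 70.3%, with water.

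The SKOR1 summit was at 68132429 with auxin and Nutlin-3a and at 68132495 in WT cells with Nutlin-3a, 66 bp apart. Of the 65 shared peaks, 43 had summits closer together. Its start and end differed by 32 and 40 bp, and the auxin peak lay wholly within the WT peak and covered 93.4% of it. Of the 65 pairs, 9 had edges closer together in sum.

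**Figure D2:**
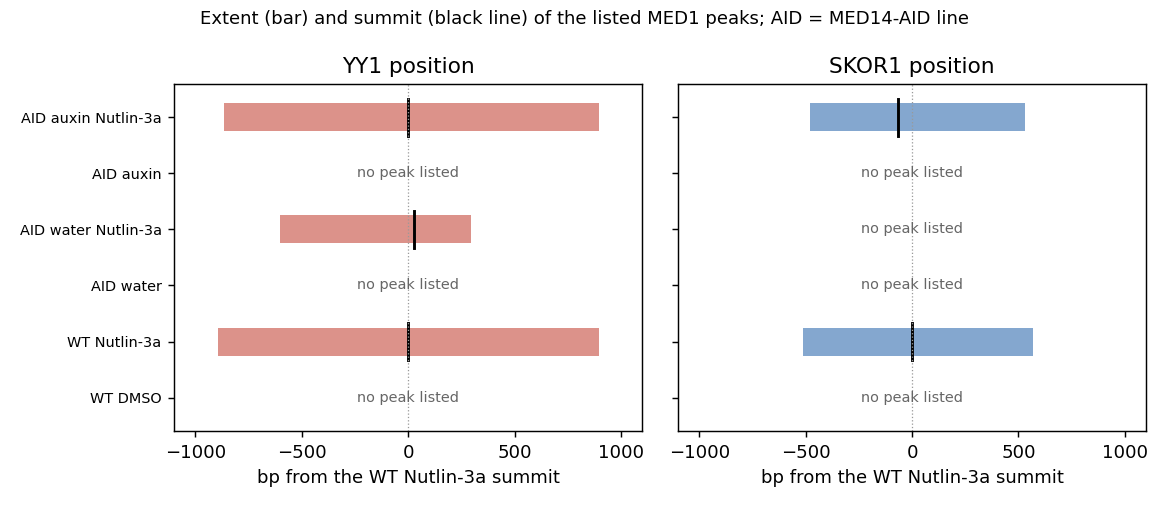
Extent (bar) and summit (black line) of the listed MED1 peaks at YY1 and SKOR1, in bp from the summit of the WT Nutlin-3a peak, in each of the 6 lists. The YY1 bars of the auxin Nutlin-3a and WT Nutlin-3a lists are 1763 and 1790 bp wide with summits 1 bp apart, and the bar of the water Nutlin-3a list is 895 bp wide.

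The YY1 peak was 1763 bp wide with auxin and Nutlin-3a, 895 bp with water and Nutlin-3a and 1790 bp in WT cells with Nutlin-3a. The median widths of these lists were 669, 830.5 and 818 bp. With auxin, the YY1 peak was the second widest of 66, and the 9 peaks next to it in fold (4 higher and 5 lower) were 757 to 1177 bp wide. In WT cells its width was less unusual, since 4 of the 10 peaks nearest in fold were wider and 6 narrower. The SKOR1 peak was 1011 bp wide with auxin and 1083 bp in WT cells. Of the 10 peaks nearest to it in fold, 2 were wider and 8 narrower with auxin, and 6 were wider and 4 narrower in WT cells.

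Peaks were mostly narrower with auxin than in the lists they were shared with. Over the 65 peaks shared with WT cells, the median width with auxin was 0.698 times that in WT cells, and 3 of 65 were wider. At YY1 the ratio was 0.985 and at SKOR1 0.934, and 6 and 9 of the 65 had larger ratios. Over the 49 auxin Nutlin-3a peaks that overlapped a water Nutlin-3a peak, the median ratio of auxin over water was 0.645 and 16 were wider with auxin. At YY1 it was 1.97, the largest of the 49, followed by 1.45.

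**Figure D3:**
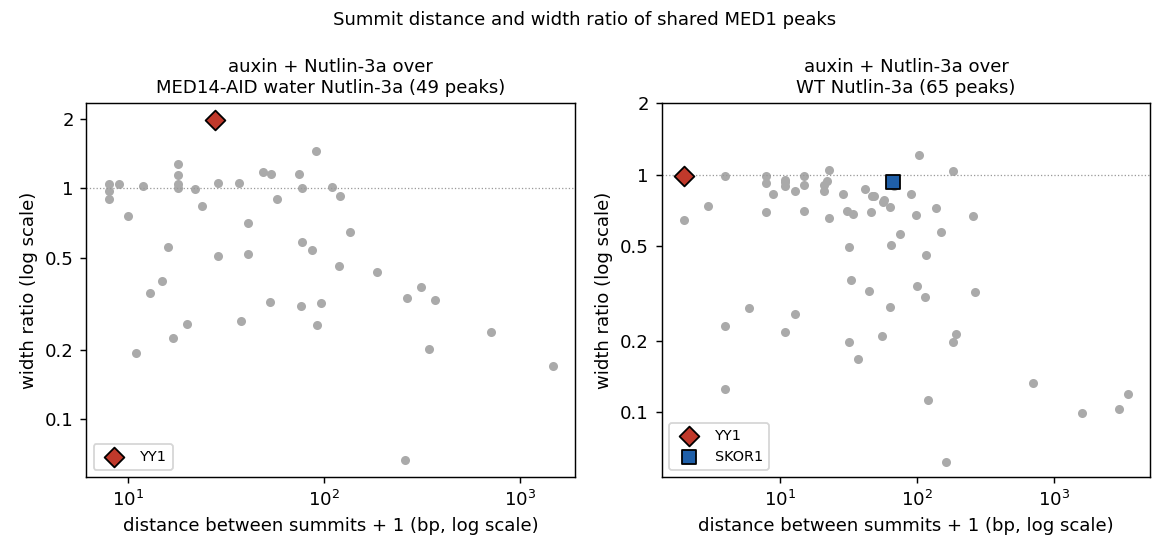
Width ratio (log axis) against the distance between summits plus 1 bp (log axis) for peaks of the auxin Nutlin-3a list shared with the water Nutlin-3a list (49 peaks, left) or the WT Nutlin-3a list (65 peaks, right). YY1 (diamond) has the largest ratio on the left, 1.97, and SKOR1 (square) has a ratio of 0.934 on the right.

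Ranks within the same set of shared peaks show how the YY1 position stood in each list. Among the 49 peaks shared by the auxin and water lists with Nutlin-3a, YY1 was number 5 by fold with auxin and number 47 with water. This gap of 42 places was the largest of the 49, against a median of 11 and a next largest of 31. By −log10 q it was number 6 with auxin and number 47 with water. Among the 65 peaks shared by the auxin and WT lists, YY1 was number 5 with auxin and number 10 in WT cells, and SKOR1 was number 14 and number 12. Those gaps of 5 and 2 places were below the median gap of 12. Of the 453 water Nutlin-3a peaks shared with WT cells, YY1 was number 322 with water and number 10 in WT cells, and 9 of the 453 had a larger gap. All lists compared here had Nutlin-3a. Between the auxin and water lists, auxin and the single library behind each list cannot be told apart. Between MED14-AID and WT lists the edited line and its mock or auxin treatment differ as well. Each WT list also joins 2 replicates, while each MED14-AID list rests on 1 library.

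**Figure D4:**
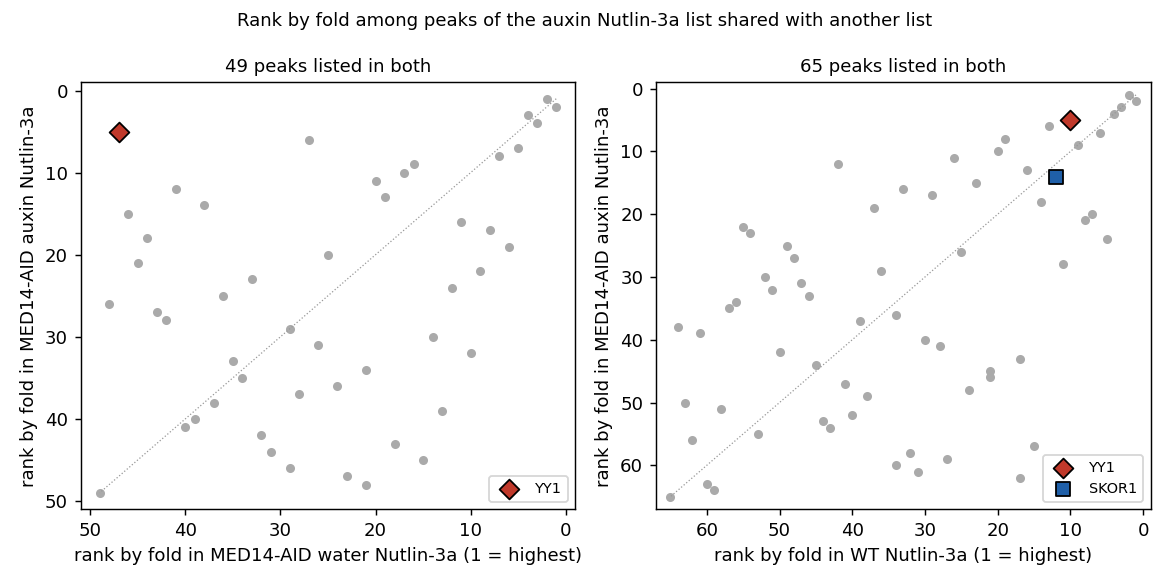
Rank by fold (1 is highest) in the auxin Nutlin-3a list against rank in the water Nutlin-3a list (49 shared peaks, left) and in the WT Nutlin-3a list (65 shared peaks, right), with a dotted line of equal rank. YY1 (diamond) is number 5 against number 47 on the left and 5 against 10 on the right, and SKOR1 (square) is 14 against 12.

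Both positions lay far from other listed peaks. With auxin and Nutlin-3a, YY1 was the only peak listed on chromosome 14 and SKOR1 the only one on chromosome 15. That list held 66 peaks in all, and how many others stood alone on their chromosome was not counted. The WT Nutlin-3a list, whose folds chose these positions, held 55 peaks on chromosome 14 and 29 on chromosome 15. In that list the nearest other peak was 307.5 kb from YY1 and 1954 kb from SKOR1, against a median gap of 10.3 kb over the list, and 281 and 122 of its 1254 peaks were more isolated. With water and Nutlin-3a the nearest other peak was 3169 kb from YY1, against a median gap of 7.79 kb, and YY1 was number 20 by fold of 34 peaks on the chromosome. In WT cells with DMSO the nearest peak to the YY1 position was 414.2 kb away and the nearest to SKOR1 2534 kb. With auxin alone, chromosome 14 held 3 peaks, the nearest 5893 kb away, and chromosome 15 held none. With water alone the nearest were 3169 kb and 8252 kb away.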

How the data were processed

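MED1 ChIP-seq peak lists were used as deposited. Bowtie 0.12.9, MACS2 2.1.2 and hg19 are named in the submitters' processing notes, without settings. Per the labels, both replicates of a WT condition share 1 list, and every MED14-AID library has its own. The deposited fold is the ratio over background, and the deposited −log10 values used are those of each peak's q. The authors' score per peak holds the same −log10 q, rescaled and truncated, and was not used further. Summit offsets were deposited in bp from the peak start, and positions are given 1-based. MACS2 widths and folds depend on depth, which is unknown here.

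Peaks that overlapped by 1 bp or more counted as shared (Python 3.11.15, pandas 2.3.3, numpy 2.4.6 and scipy 1.17.1, figures with matplotlib 3.10.9). The overlap and merging steps were tested on simulated data. Where several peaks overlapped, the one of highest fold was paired. All peaks in the intervals are named, with up to 5 regions present in the same lists. The members and comparisons were chosen with earlier results of these data known. Planned gene lists were not analysed here, since no hg19 gene table was used. The alternatives were −log10 q of at least 5 or 10, a gap of 1 kb, a reciprocal overlap of 50% and −log10 q as the measure of strength.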

Additional observations from a re-analysis of the deposited data

How the results depend on the processing

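YY1 was listed in 3 lists and SKOR1 in 2 under the overlap alternatives and at −log10 q of at least 5. At −log10 q of at least 10 the YY1 peak with water and Nutlin-3a, at 7.68, was lost by construction, leaving 2 lists. The count of regions with the YY1 pattern, which is also that of regions in every Nutlin-3a list and no other, was then 0 in place of 2. The count with the SKOR1 pattern was 3 in place of 1, since YY1 and the chromosome 2 position joined it. The Nutlin-only share in WT cells was 37.7% at −log10 q of at least 10, 31.2% with a 1 kb gap and 43.1% with 50% reciprocal overlap. In MED14-AID cells with water the same stricter limit gave 36.0%, and reciprocal overlap gave 43.3%. A gap can only add shared peaks and a reciprocal overlap can only remove them, so the direction of those shifts was set by definition. The cause of the shifts of the shares at the stricter −log10 q limit was not tested. The other 21 values of these counts and shares stayed within 1.5 times the count or the 95% Wilson interval, and so did the 5 ranks by −log10 q in place of fold. No paired analysis was possible because each WT condition has 1 joint list and each MED14-AID condition 1 library, and for the same reason no replicate could be left out. Unknown depth limits what the absence of a weak peak can show.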
